A study of Arabidopsis thaliana with 9 samples.

Results

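WRKY and NAC factors are plant transcription factor families, and 7 of their genes had a probe set that matched the rule for members below. A member was any probe set with exactly 1 gene symbol in the platform annotation that began with WRKY, NAC or ANAC followed directly by a digit. This gave 6 WRKY genes, WRKY53, WRKY22, WRKY6, WRKY42, WRKY47 and WRKY20, and 1 NAC gene, NAC014, among 13513 single-gene probe sets and 22746 probe sets in all. The RefSeq gene table for TAIR10.1 lists 72 WRKY and 100 NAC genes by symbol or alias, so the members are a small sample of both families, and what follows describes these genes and not the families. The remaining family genes were not analysed here, except ZAP1, an alias of WRKY1, which the rule left out by its symbol. In the annotation used, 8730 probe sets had no gene name and 503 named several genes. The number of members therefore does not say how many family genes the arrays measure. Of the 6 WRKY members, 5 have a locus tag on chromosome 4 (WRKY53 is AT4G23810, WRKY22 AT4G01250, WRKY42 AT4G04450, WRKY47 AT4G01720 and WRKY20 AT4G26640), while WRKY6 (AT1G62300) and NAC014 (AT1G33060) are on chromosome 1. The gene table holds 16 WRKY genes on chromosome 4 out of its 72, and 5 of these 16 had a single-gene probe set. On chromosomes 1 and 2 this held for 1 of 16 and 1 of 17, and on chromosomes 3 and 5 for 0 of 6 and 0 of 17. The chromosomes of all single-gene probe sets were not counted, so no concentration of the members on a chromosome is read from this.

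Transcript levels were measured on 9 Affymetrix ATH1 arrays of total RNA from Arabidopsis thaliana, with 3 arrays for each of 3 genotypes. The tested genotypes were a HAP5 triple mutant, labelled as a T-DNA knockout with Col-0 given as its genetic variation, and a constans mutant whose source is labelled co-SAIL with no background stated. The wild type was labelled Col-1. All plants were 10 days old, grown in soil at 22 °C in days of 16 h light and 8 h dark, and all above-ground tissue was taken 14 h after lights on. The 3 HAP5 genes are not named in the labels, each mutant may be a single line, and genotype and background cannot be told apart. HAP5 genes encode the NF-YC subunits of the CCAAT-binding complex, and CONSTANS acts with that complex to promote flowering in long days. In RNA from whole shoots, fewer cells of a type and less RNA per cell cannot be told apart.

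WRKY proteins bind the W-box of promoters through a conserved domain that carries the WRKYGQK peptide and a zinc finger, and many of their genes respond within a short time to pathogens, wounding or reactive oxygen. Their classes differ in the number of WRKY domains and in the zinc finger: WRKY20 belongs to group I, WRKY6, WRKY42 and WRKY47 to group IIb, WRKY22 to group IIe and WRKY53 to group III. NAC proteins share an N-terminal DNA-binding domain and act in organ boundaries, secondary walls, stress responses and leaf senescence. In leaves both families are best known for defence and for the timing of senescence, where WRKY53 acts early.

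Of the 7 members, 6 were bright enough to be tested. Each of the 6 passed the filter on dim probe sets in all 3 genotypes, with a mean above a signal of 18.6, so none was admitted through 1 genotype alone. WRKY42 did not pass. Each change below is a difference of mean log2 signals with its standard error (SE) from a limma fit over all 9 arrays. Each adjusted p is a Benjamini-Hochberg value from limma over 14173 tested probe sets, and a gene was called at an adjusted p under 0.05. Nothing in the labels says that the arrays of 1 genotype were of separate plantings, and p-values therefore reflect the spread between these arrays alone, which may be technical.

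The arrays had a common trimmed mean of signal, with medians between 33.1 and 37.0. The 25S ribosomal RNA control, which is not part of the measurement, ran from 15.9 to 42.4 on HAP5 triple mutant arrays, from 56.5 to 1152 on constans arrays and from 22.6 to 418 on wild-type arrays. Constans arrays 2 and 3 and wild-type array 3 stood above 400. Of 6 leaf marker genes, 3 had a named probe set, and all 3 were bright on every array. RCA, which encodes Rubisco activase, had signals of 4944 to 6099 in the HAP5 triple mutant, 5376 to 6641 in the constans mutant and 5395 to 6021 in wild type. LHCB4.2, of the photosystem II antenna, was the 1 leaf marker that passed in any comparison, with a log2 difference of -0.43 ± 0.10 (SE) for the HAP5 triple mutant against the constans mutant (limma, adjusted p = 0.0300), and its part in the results below was not tested. None of 8 root marker genes had a named probe set, so the absence of root tissue was not checked.

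WRKY53, a group III factor that promotes leaf senescence and takes part in defence, fell in the constans mutant relative to wild type and relative to the HAP5 triple mutant, and its change in the HAP5 triple mutant did not pass the test. Its signal was 68.9, 49.3 and 41.4 on the constans arrays, against 132, 130 and 102 on the wild-type arrays. All constans arrays lay below all wild-type arrays, with the highest constans value at 68.9 and the lowest wild-type value at 102. The means were 53.2 ± 14.1 in the constans mutant and 121 ± 16.7 in wild type (SD, n = 3 each). WRKY53 fell by 1.21 ± 0.18 (SE) on the log2 scale, or 2.31-fold, with a 95% interval of -1.59 to -0.83 (limma, adjusted p = 2.74e-03). This was larger than the spread between arrays, and a smaller change in either direction was found for 99.4% of tested probe sets. As WRKY53 was included by name with earlier results of these data known, that rank is a description and not a test.

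In the HAP5 triple mutant WRKY53 had signals of 122, 140 and 117, with a mean of 127 ± 12.3, against 121 ± 16.7 in wild type (SD, n = 3 each). Of these arrays 1 lay above the range of wild type and the others within it, so the groups overlapped. The change was 0.07 ± 0.18 (SE) on the log2 scale with a 95% interval of -0.31 to 0.45 (limma, adjusted p = 0.978). The 2 mutants were then compared directly. WRKY53 was 2.43-fold higher in the HAP5 triple mutant than in the constans mutant, a log2 difference of 1.28 ± 0.18 (SE) with a 95% interval of 0.90 to 1.66 (limma, adjusted p = 8.46e-04). This comparison uses the same constans arrays as the one with wild type, so it is not a separate observation of the low level, but it is the test of whether the mutants differed.

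**Figure D1:**
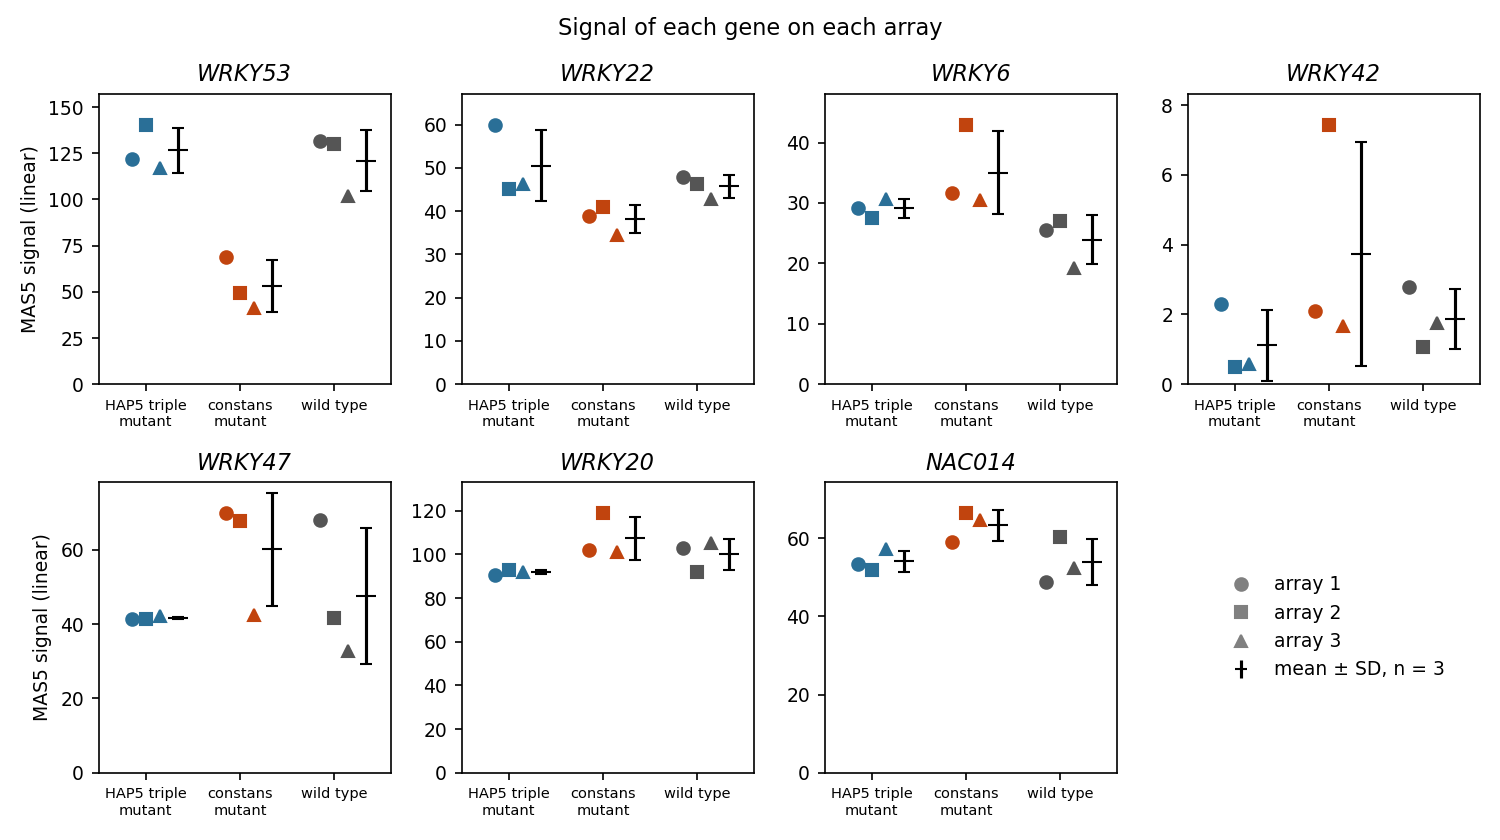
Linear MAS5 signal (vertical axes, each from 0) of each of the 7 genes on each array, by genotype (HAP5 triple mutant, constans mutant, wild type), with the mean ± SD of 3 arrays in black. For WRKY53 the constans arrays lie between 41.4 and 68.9 and all other arrays at 102 or above, while the ranges of the other genes lie closer together or overlap.

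High 25S signals went with low WRKY53 signals in part. Constans array 1 had a 25S signal of 56.5, below the 108 of wild-type array 2, and its WRKY53 signal was 68.9, against 130 on that wild-type array. Constans arrays 2 and 3, with 25S signals of 1152 and 1079, had the lowest WRKY53 signals of all 9 arrays. Wild-type array 3, with the highest 25S signal of its genotype, also had the lowest WRKY53 signal of its genotype. Without these 3 arrays the log2 change between the constans mutant and wild type was -0.92 (adjusted p = 0.0511), where 1 constans array remained and its spread was taken from the other groups. In that fit the HAP5 triple mutant exceeded the constans mutant by 0.87 on the log2 scale (0.0267). With the log2 25S signal as a covariate the change between the constans mutant and wild type was -0.98 (4.39e-03) and the difference between the mutants was 0.80 (0.0841), against 1.28 without the covariate. Both settings were chosen after the data were seen. With 1 constans array at a low 25S signal, the part of the 25S signal in the result was not tested.

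**Figure D2:**
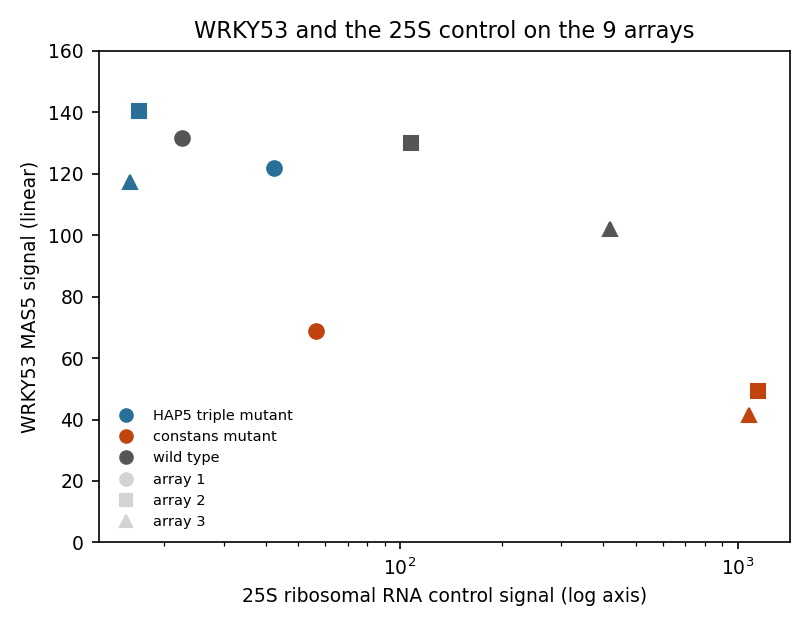
WRKY53 signal (vertical axis, linear, from 0) against the 25S ribosomal RNA control signal (horizontal log axis) on the 9 arrays, coloured by genotype and with a symbol for each array number. The constans array with a 25S signal of 56.5 lies at 68.9, below all HAP5 triple mutant and wild-type arrays, and the other constans arrays lie lower, at 25S signals of 1152 and 1079.

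WRKY22, a group IIe factor that acts downstream of a MAP kinase cascade in flagellin-triggered immunity and in dark-induced senescence, had lower values in the constans mutant, but the difference did not pass. Its signal was 39.0, 40.9 and 34.5 on the constans arrays, against 48.0, 46.3 and 42.7 on the wild-type arrays. The groups did not overlap, but the highest constans array, at 40.9, was close to the lowest wild-type array, at 42.7. The log2 change was -0.26 ± 0.17 (SE, limma adjusted p = 0.618). On the HAP5 triple mutant arrays WRKY22 stood at 59.97, 45.2 and 46.3, so array 1 lay above every other array and the remaining pair lay within the range of wild type. The log2 difference was 0.13 ± 0.17 from wild type (adjusted p = 0.942) and 0.40 ± 0.17 from the constans mutant (adjusted p = 0.236, unadjusted p = 0.0320).

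WRKY6, of group IIb, is known for roles in senescence, in defence and, as a repressor of the phosphate exporter gene PHO1, in phosphate supply. Its signal was 31.6, 43.0 and 30.5 in the constans mutant, against 25.5, 27.1 and 19.3 in wild type. The constans arrays all lay above the wild-type arrays, the opposite order to WRKY53, with the nearest arrays at 30.5 and 27.1. The log2 change was 0.55 ± 0.22 (SE), with an unadjusted p of 0.0243 and an adjusted p of 0.337 (limma), so it was not called. Leaving out each array in turn moved it between 0.39 (without constans array 2) and 0.64 (without wild-type array 2). Without the 3 arrays with a 25S signal above 400 it was 0.27. In the HAP5 triple mutant WRKY6 had signals of 29.2, 27.5 and 30.6, which also all lay above wild type, though the nearest arrays stood at 27.5 and 27.1. That change was 0.30 ± 0.22 (adjusted p = 0.888), or 0.15 without wild-type array 3. The mutants differed by -0.25 ± 0.22 (adjusted p = 0.583), or by -0.09 without constans array 2. WRKY6 was among the dimmer members, with a wild-type mean of 23.9 ± 4.103 (SD, n = 3) against a filter level of 18.6.

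WRKY42, a group IIb relative of WRKY6 that also represses PHO1, was dim on every array and was not tested. Its signal was 2.30, 0.481 and 0.584 on HAP5 triple mutant arrays, 2.09, 7.44 and 1.68 on constans arrays, and 2.79, 1.08 and 1.77 on wild-type arrays. The highest value was on constans array 2. That array also had the fewest values at or below the lowest level allowed, 1319 probe sets against 2036 to 2781 on the other arrays. On the same array CLV3, a shoot meristem marker that was likewise too dim to test, stood at 22.1, against 1.65 or less on all others. No fold change is given for WRKY42, since 2 of its HAP5 triple mutant values lay below the lowest level allowed, a signal of 1.03.

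WRKY47, also of group IIb and linked to aluminium tolerance and to boron supply, varied more within genotypes than the other tested members. Its signal was 41.5, 41.5 and 42.1 on the HAP5 triple mutant arrays, which were nearly equal. It was 69.8, 67.8 and 42.5 on the constans arrays and 68.1, 41.7 and 32.8 on the wild-type arrays. The constans arrays and the wild-type arrays thus each held both high and low values, and their ranges overlapped. The pooled SD within genotypes was 0.39 on the log2 scale, above that of 91.5% of the tested probe sets, whose median was 0.19. The log2 change was 0.37 ± 0.25 (SE) in the constans mutant against wild type (adjusted p = 0.646), and -0.12 ± 0.25 in the HAP5 triple mutant against wild type (0.971). Single arrays decided these values. Leaving out each array in turn moved the change in the constans mutant between 0.14 (without wild-type array 3) and 0.66 (without wild-type array 1), and with array weights it was 0.04. Without wild-type array 1 the change in the HAP5 triple mutant was 0.17 (adjusted p = 0.947), the opposite direction. The HAP5 triple mutant arrays all lay below the constans arrays, the nearest at 42.1 and 42.5, with a log2 difference of -0.49 ± 0.25 (adjusted p = 0.322). Once the 25S covariate was added it was -1.11 (0.132).

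WRKY20, a group I factor with a pair of WRKY domains, was among the steadiest members. Its signal was 90.8, 92.8 and 92.1 on HAP5 triple mutant arrays, 102, 119 and 101 on constans arrays, and 103, 92.0 and 105 on wild-type arrays. Wild type overlapped with both mutants, and the mutants did not overlap with each other. The pooled SD was 0.10 on the log2 scale, smaller than in all but 8.89% of those tested. The log2 change was -0.12 ± 0.12 (SE) in the HAP5 triple mutant and 0.10 ± 0.12 in the constans mutant against wild type (adjusted p = 0.920 and 0.835), and the mutants differed by -0.22 ± 0.12 (0.355). The intervals for the changes against wild type, -0.37 to 0.14 and -0.15 to 0.36, allow changes of up to 1.30-fold lower and 1.28-fold higher.

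NAC014, which belongs to the NAC genes whose products carry a predicted membrane anchor, did not pass in any comparison. Its signal was 58.9, 66.4 and 64.7 in the constans mutant, against 48.7, 60.2 and 52.5 in wild type, and these ranges overlapped. The HAP5 triple mutant arrays, at 53.5, 51.8 and 57.1, lay within the range of wild type and below all constans arrays. The log2 change was 0.24 ± 0.14 (SE) in the constans mutant and 0.01 ± 0.14 in the HAP5 triple mutant against wild type (adjusted p = 0.583 and 0.995), and the mutants differed by -0.23 ± 0.14 (0.432). Its pooled SD of 0.11 was exceeded by all but 14.1% of the tested probe sets.

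**Figure D3:**
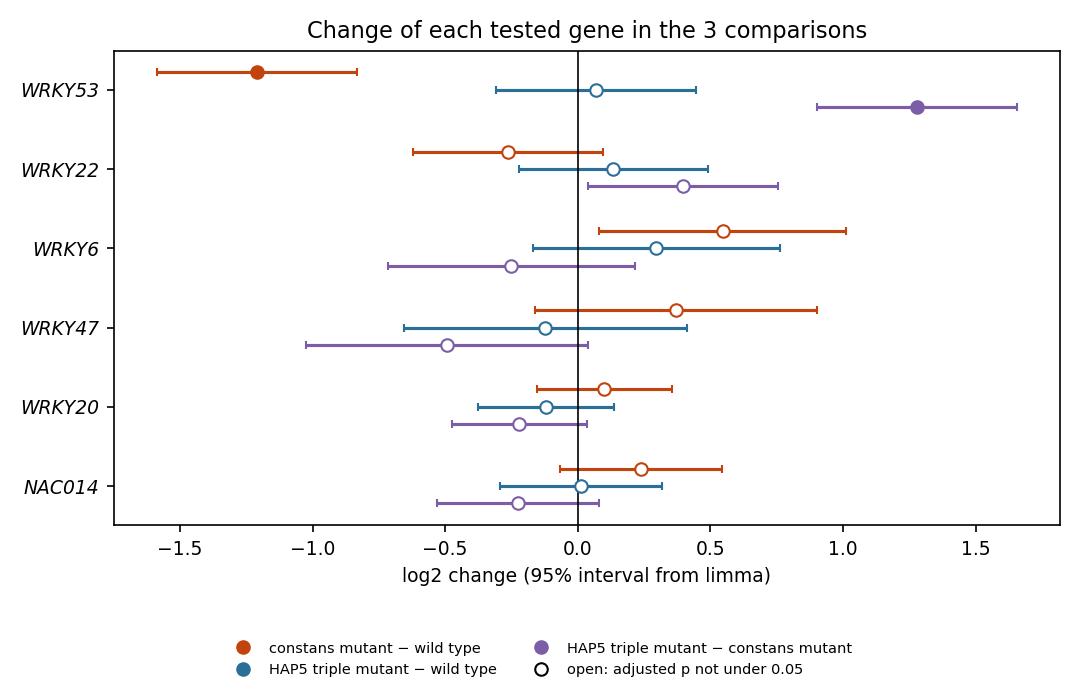
Log2 change with its 95% interval from limma (horizontal axis) of the 6 tested genes in each comparison (colours), filled where the adjusted p was under 0.05. Only the WRKY53 changes that involve the constans mutant, -1.21 against wild type and 1.28 for the HAP5 triple mutant against it, are filled.

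Counted together, 0 of the 6 tested members were called between the HAP5 triple mutant and wild type by limma, where 0.0917% of all tested probe sets were called. None had an unadjusted p under 0.05 either, a level met by 6.51% of all tested probe sets. Between the constans mutant and wild type 1 of 6 was called and lower (WRKY53), where 1.4% of all tested probe sets were called and 0.614% were called and lower. An unadjusted p under 0.05 was met by 2 of 6, WRKY53 and WRKY6, against 11.3% of all. Between the HAP5 triple mutant and the constans mutant 1 of 6 was called and higher, against 3.38% called in all and 1.93% called and higher. An unadjusted p under 0.05 was met there by 2 of 6, WRKY53 and WRKY22, against 17.7% of all. WRKY53 was included by name with earlier results of these data known, and no other member was called. The counts that include it are therefore not a test against the shares of all probe sets. The 6 genes are too few for a statement about the families.

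Arrays of the groups did not overlap for 1 of 6 members between the HAP5 triple mutant and wild type (WRKY6), against 14.1% of all tested probe sets. They did not overlap for 3 of 6 between the constans mutant and wild type (WRKY53, WRKY22 and WRKY6), against 14.4%, and for 5 of 6 between the mutants (all but WRKY6), against 22.6%. Both of these counts include WRKY53, which was chosen by name. The median log2 change of the 6 stood at 0.04 in the HAP5 triple mutant and 0.17 in the constans mutant, each against wild type, and was -0.22 between the mutants, with medians of 0.01, 0.00 and 0.00 over all tested probe sets. The median size of the change, without its sign, was 0.12, 0.32 and 0.32, against 0.12, 0.14 and 0.17 over all tested probe sets. Against wild type, WRKY6, WRKY47, WRKY20 and NAC014 had positive mean changes in the constans mutant, and WRKY53 and WRKY22 negative ones. In the HAP5 triple mutant the changes of WRKY53 and NAC014 were near 0, and each turned negative in 4 of 21 alternative fits. The lowest log2 values were -0.18 for WRKY53 (25S covariate) and -0.056 for NAC014 (without wild-type array 1). No count by direction is therefore given there.

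ZAP1, also known as WRKY1 and like WRKY20 a group I factor, was read beside the members as a WRKY gene that the rule had left out. Its signal was 122, 123 and 107 on HAP5 triple mutant arrays, 110, 124 and 129 on constans arrays, and 123, 126 and 122 on wild-type arrays. The groups overlapped in every comparison. Its log2 changes against wild type were -0.08 ± 0.11 (SE) and -0.04 ± 0.11 (adjusted p = 0.951 and 0.950).

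Genes that act around these factors could be followed only in part. Of 61 genes in 7 lists, 4 had a named probe set and 3 could be tested. The lists with no named probe set were the MAP kinase cascade, the protein partners of WRKY and NAC factors, salicylic acid output and secondary walls. None of the 3 tested genes was called in any comparison by limma, and 1 had an unadjusted p under 0.05, in the comparison between the mutants. That gene was SAG101, a partner of the immune regulator EDS1 and the 1 gene measured of 16 in salicylic acid and immune signalling. SAG101 had signals of 31.9, 24.6 and 18.4 on HAP5 triple mutant arrays and 33.0, 41.3 and 43.1 on constans arrays, against 29.6, 22.9 and 36.5 on wild-type arrays. The constans and wild-type arrays overlapped, while all HAP5 triple mutant arrays lay below all constans arrays. Its log2 change in the constans mutant against wild type was 0.42 ± 0.25 (SE, adjusted p = 0.583), and the HAP5 triple mutant differed from the constans mutant by -0.68 ± 0.25 (adjusted p = 0.168).

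Of 15 leaf senescence genes, EIN3 and SAG29 had a named probe set. EIN3, a transcription factor of the ethylene response that promotes senescence, had log2 changes of 0.10 ± 0.11 (SE) in the HAP5 triple mutant and -0.07 ± 0.11 in the constans mutant against wild type (adjusted p = 0.936 and 0.873). SAG29, a sugar transporter gene induced in old leaves, was too dim to test, with signals of 3.74, 1.94 and 5.74 on HAP5 triple mutant arrays, 0.612, 10.4 and 62.8 on constans arrays, and 4.84, 7.05 and 2.31 on wild-type arrays. Its value of 62.8 was on constans array 3, where WRKY53 was lowest, and the other constans arrays lay on both sides of the wild-type range. Of the genes downstream of mitochondrial NAC signalling, AT2G21640 had log2 changes of 0.30 ± 0.24 and 0.25 ± 0.24 in the HAP5 triple mutant and the constans mutant against wild type (adjusted p = 0.902 and 0.781).

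The size and the call of the WRKY53 change were recomputed under other scalings, filters, variance models and array sets. Of 21 alternatives, its call in the constans mutant ended in 2 against wild type and in 1 between the mutants. Its direction was the same in all of them, but this was largely fixed in advance. Other filters, a fit without a trend, a fit of the compared genotypes alone and the replicate block leave the estimate unchanged. All constans arrays lay below all other arrays, so leaving out an array could not reverse the direction.

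**Figure D4:**
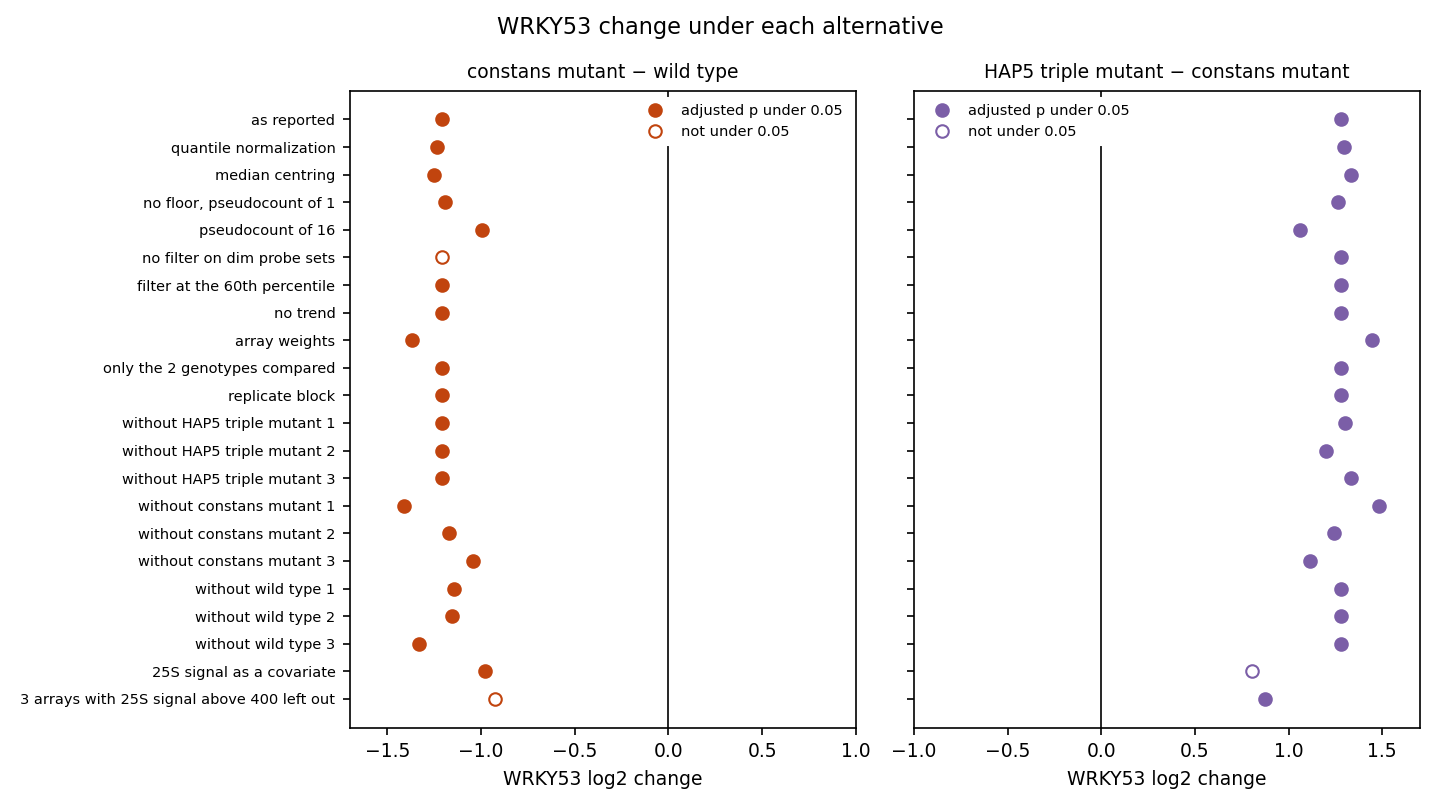
WRKY53 log2 change (horizontal axes) between the constans mutant and wild type (left) and between the HAP5 triple mutant and the constans mutant (right), as reported and under 21 alternatives (vertical axis), filled where the adjusted p was under 0.05. The values run from -1.41 to -0.92 on the left and from 0.80 to 1.48 on the right, with open points for 2 and 1 of the alternatives.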

How the data were processed

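The authors deposited intensity values, the linear MAS5 signal of 22810 probe sets on 9 arrays, made with MAS5 and GCOS per the submitters' processing notes, with no detection calls. The 2% trimmed mean of signal was 100.01 on every array. The 64 Affymetrix controls were left out. Signals under the pooled 10th percentile, 1.03, were set to it, log2 was taken with no further normalization, and probe sets with a genotype mean at or above the 40th percentile of such means, a signal of 18.6, were tested, 14173 in number. The platform annotation gave the gene names, and TAIR10.1 the locus tags alone. The genome build of the probe sets is not given in the sources used here. A single limma 3.58.1 fit (R 4.3.3) held all genotypes (lmFit and eBayes with a trend, 6 residual degrees of freedom), with Benjamini-Hochberg adjustment over all tested probe sets. Tables were read with pandas 2.3.3. On simulated constans and wild-type arrays of 14173 probe sets, limma recovered 34.0% of changes of 1.5-fold, 76.7% at 2-fold and 97.0% at 4-fold, with 4.54% false calls. Arrays have no read depth, and their number limits the precision. The members, lists and tests were chosen with earlier results of these data known, and WRKY53 was included by name. By rule, WRKY53, every called member and members with the largest changes or levels were to be given on every array. With 7 members all were. The alternatives were other scalings, floors, filters and variance models, a replicate block, a fit of the compared genotypes alone, a change of at least 2-fold and leaving out each array.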

Additional observations from a re-analysis of the deposited data

How the results depend on the processing

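The call on WRKY53 between the constans mutant and wild type held in 19 of 21 alternatives, with log2 changes of -1.41 to -0.92. It ended with no filter on dim probe sets (-1.21, adjusted p = 0.0627, with 22746 probe sets tested) and without the 3 arrays with a 25S signal above 400 (-0.92, 0.0511), so the count of called members was then 0 instead of 1. Between the HAP5 triple mutant and the constans mutant it held in 20 of 21, from 0.80 to 1.48, and ended with the 25S signal as a covariate (0.80, 0.0841, count of called members 0 instead of 1). The cause was not tested. Leaving out each array in turn gave WRKY53 changes of -1.41 to -1.05 (adjusted p 4.39e-04 to 0.0181) against wild type in the constans mutant, and 1.11 to 1.48 (1.18e-04 to 8.28e-03) between the mutants, and called members numbered 1 in both comparisons and 0 between the HAP5 triple mutant and wild type throughout. The other 16 changes of tested members passed in 0 of 330 alternative fits. With a change of at least 2-fold also required, the counts were the same. The deviations of same-numbered arrays had correlations of -0.04 to 0.23 over tested probe sets, with the own number best in 9 of 18 lookups, and as not every pair exceeded 0.1 the numbers were not taken to pair the arrays. With the replicate block WRKY53 changed by -1.21 (adjusted p = 6.44e-04) and 1.28 (2.02e-04) and no member's call changed. Over all tested probe sets the counts of calls moved more: 4 (no trend) to 99 (array weights) against 13 between the HAP5 triple mutant and wild type, 37 (without the 3 arrays of high 25S signal) to 275 (array weights) against 198 between the constans mutant and wild type, and 132 (25S covariate) to 1192 (array weights) against 479 between the mutants.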
